A study of Homo sapiens with 24 samples.

Results

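The 4 ligand genes, 2 receptor genes and 2 co-receptor genes of the vascular endothelial growth factor (VEGF) system were examined by RNA sequencing in ARPE-19 cells, a human cell line of the retinal pigment epithelium (RPE). They are VEGFA, VEGFB, VEGFC and PGF, the receptors FLT1 and KDR, and the neuropilins NRP1 and NRP2. They were taken by gene name from the table of gene counts, and are 8 of the 60623 genes in it. All 8 were among the 24873 genes that passed a minimum of 10 counts over the 24 libraries, although FLT1 passed with exactly 10.

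The libraries came from 4 kinds of ARPE-19 cells at 2 oxygen levels, with 3 libraries in each of the 8 groups. OE cells overexpress EMP2, a tetraspan membrane protein, from a retroviral construct. KD cells carry a lentiviral short hairpin RNA against EMP2, and VC cells carry the empty retroviral vector, while WT cells are unmodified. All cells were grown in normoxia, and the hypoxic groups then spent 4 h at 0.5% oxygen by the labels, or 2 to 4 h by the study's methods. The OE libraries 1 and 2 are labelled OE2 and library 3 is labelled OE1, and whether these are the same line is not stated. The knock down construct behind the KD libraries is not named, and no line with a control hairpin is among these samples, so that a difference from WT cells cannot be told apart from a difference between separately derived lines. The labels do not describe the 3 libraries of a group as independent cultures, and every p-value below measures the spread between these libraries only, which may be technical.

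VEGFs are secreted dimers that bind receptor tyrosine kinases, mostly on endothelium. VEGF-A is the main driver of vessel growth and leak, and its gene is induced in low oxygen by hypoxia-inducible factors (HIFs). In the eye the RPE secretes VEGF-A toward the choroidal vessels that it rests on, and excess VEGF-A accompanies neovascular disease of the retina. VEGF-C acts mainly on lymphatic vessels, VEGF-B and placental growth factor bind FLT1, and neuropilins present both VEGFs and class 3 semaphorins to their signalling partners.

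The libraries held 10796813 to 19779450 counts. Levels are counts per 1000000 of a TMM-adjusted library total (CPM). Hypoxic OE library 1 stood apart: gene counts were 64.9% of its uniquely mapped reads, against 90.0% to 91.5% in the other 23 libraries, and for the 8 genes the called values that use it are also given without it. EMP2 was at 478 to 625 CPM in hypoxic and 527 to 620 CPM in normoxic OE libraries, at 7.53 to 7.89 and 11.2 to 12.8 CPM in KD libraries, and at 37.8 to 43.8 and 53.8 to 55.6 CPM in WT libraries. VC libraries had 32.7 to 36.6 CPM of EMP2 in hypoxia and 49.3 to 52.0 CPM in normoxia. Against WT cells these were log2 differences of -0.27 and -0.10, neither with an adjusted p under 0.01 (edgeR adjusted p = 0.0133 and 0.364). All 12 RPE markers on the list had counts, of which EFEMP1 made up most. Their summed level was 2576 to 3399 CPM in OE, 3053 to 3964 CPM in KD, 1012 to 1340 CPM in VC and 4633 to 5131 CPM in WT libraries. RPE65, the isomerase of the visual cycle and a defining RPE gene, was nearly absent, with 91 counts in all and none in hypoxic KD or VC cells. In bulk RNA, fewer cells of a type and less RNA per cell cannot be told apart.

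On GRCh38 (GENCODE 44), VEGFA (ENSG00000112715) lies at chr6:43770184-43786487 on the plus strand, VEGFB (ENSG00000173511) at chr11:64234584-64239264 (plus) and VEGFC (ENSG00000150630) at chr4:176683538-176792922 (minus). PGF (ENSG00000119630) lies at chr14:74941834-74955626 (minus), FLT1 (ENSG00000102755) at chr13:28300346-28495145 (minus) and KDR (ENSG00000128052) at chr4:55078481-55125595 (minus). NRP1 (ENSG00000099250) lies at chr10:33177492-33336262 (minus) and NRP2 (ENSG00000118257) at chr2:205681990-205798133 (plus). Exons of an antisense long non-coding RNA gene overlap 188 exonic bases of VEGFA (1.3%), 561 of NRP1 (4.87%) and 147 of NRP2 (1.06%). Whether the counting used strand was not given in the sources used here, so reads in those stretches could belong to either gene.

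Since the study set hypoxia against normoxia, RefSeq promoter windows of 300 bases (GRCh38.p14, 250 before to 50 after an annotated start) were searched for the core of the HIF response element, the letters ACGTG or GCGTG on either strand. Windows were given for 6 of the 8 genes, VEGFA and NRP1 having no entry. One match was found in the windows of VEGFB, VEGFC and FLT1 and in each of 2 PGF windows, and none in those of KDR and NRP2. Of all 35116 promoter windows, 17012 (48.4%) hold such a match, so its presence sets none of these genes apart. The windows of PGF, VEGFC and KDR are shown because PGF and VEGFC rose in hypoxia in some lines and KDR ranged from 1 count to over 10 CPM between lines. They are printed 5′ to 3′ on the gene's own strand with the match in capitals, which reads CACGC where GCGTG lies on the other strand. None of these matches overlaps GGGCGG, the core bound by SP1, which is found 4 times in this PGF window, 2 times each in those of VEGFC and KDR, and in 15786 of all windows.
PGF, chr14:74955548-74955847, minus strand, match 162 bases before the start: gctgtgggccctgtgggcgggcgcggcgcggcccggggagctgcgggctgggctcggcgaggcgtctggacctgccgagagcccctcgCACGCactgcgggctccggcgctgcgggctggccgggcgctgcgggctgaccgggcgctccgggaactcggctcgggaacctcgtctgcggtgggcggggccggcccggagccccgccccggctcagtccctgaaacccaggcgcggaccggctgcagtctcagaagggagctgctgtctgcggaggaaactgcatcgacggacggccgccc
VEGFC, chr4:176792873-176793172, minus strand, match 59 bases before the start: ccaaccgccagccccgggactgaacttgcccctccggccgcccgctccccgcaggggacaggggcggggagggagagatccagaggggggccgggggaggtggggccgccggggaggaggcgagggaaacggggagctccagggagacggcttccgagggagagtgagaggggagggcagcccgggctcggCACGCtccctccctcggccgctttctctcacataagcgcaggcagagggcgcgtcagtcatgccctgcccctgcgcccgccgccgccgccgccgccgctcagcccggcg
KDR, chr4:55125546-55125845, minus strand, no match in the window: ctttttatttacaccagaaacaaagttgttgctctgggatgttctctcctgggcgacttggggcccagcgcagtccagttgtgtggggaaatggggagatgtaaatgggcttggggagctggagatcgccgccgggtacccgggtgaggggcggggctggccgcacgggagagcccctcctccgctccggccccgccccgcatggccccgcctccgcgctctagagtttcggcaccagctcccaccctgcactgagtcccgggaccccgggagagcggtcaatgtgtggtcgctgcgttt
A match is a string of letters and not a measured binding site.

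**Figure D1:**
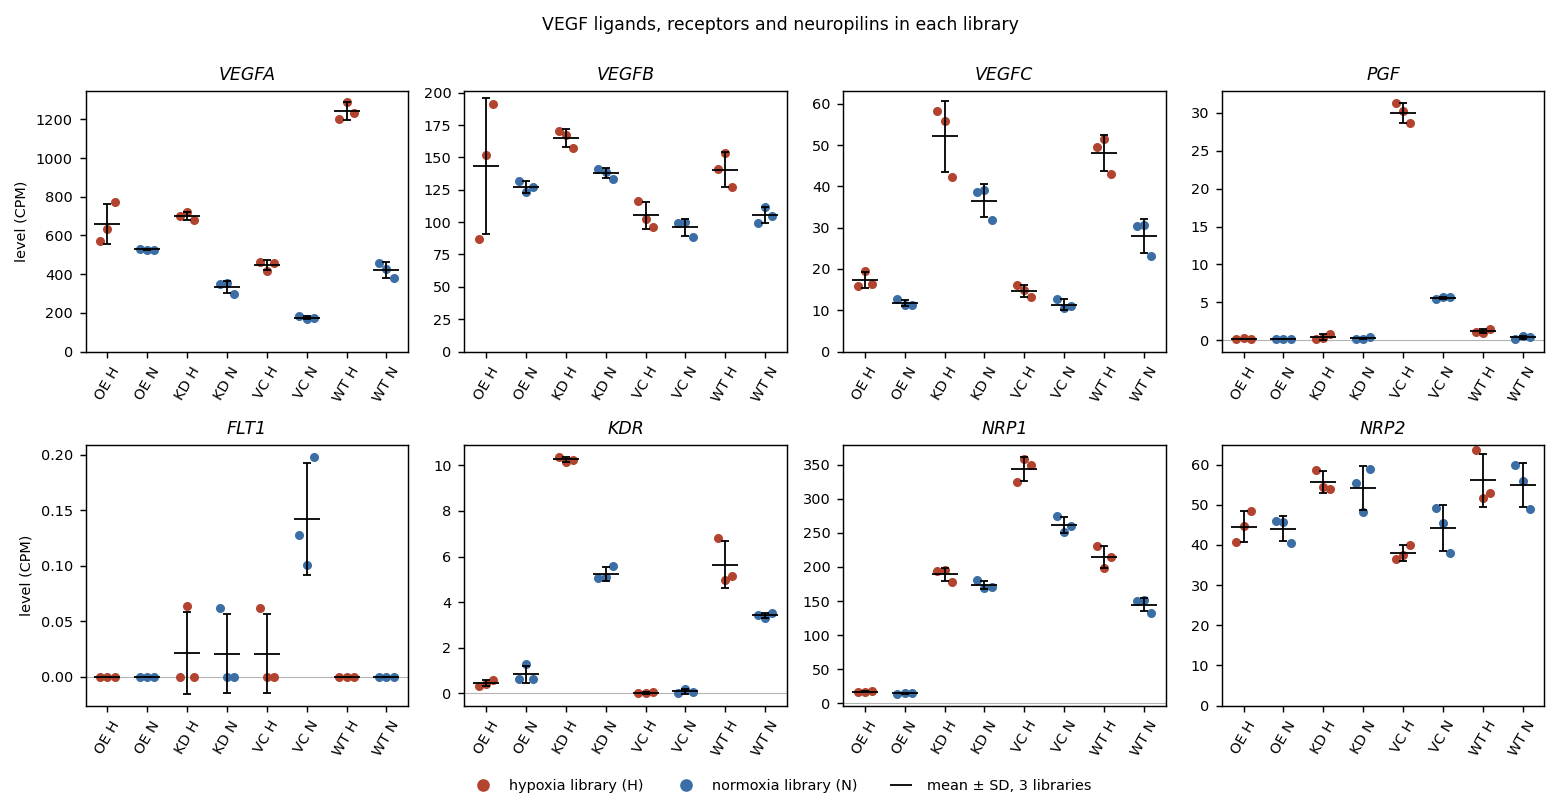
Level of each gene in CPM (vertical axis, linear, a scale per gene) in the 24 libraries, by line and oxygen level (H, hypoxia; N, normoxia); points are libraries and bars the mean ± SD of 3. VEGFA was highest in hypoxic WT cells (1242 CPM), PGF in hypoxic VC cells (30.0 CPM), KDR in hypoxic KD cells (10.3 CPM), and NRP1 was at 14.3 to 17.1 CPM in OE cells.

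VEGFA rose in hypoxia in all 4 lines, and its response was smaller in OE cells than in WT or VC cells. Its level was 569, 633 and 771 CPM in hypoxic OE libraries, against 530, 527 and 526 CPM in normoxic OE libraries. In KD cells it was 701, 721 and 682 CPM in hypoxia, against 350.1, 353 and 299.8 CPM in normoxia. VC cells had 462, 418 and 459 CPM in hypoxia, against 182, 169 and 172 CPM in normoxia. WT cells reached 1201, 1292 and 1232 CPM in hypoxia, against 459, 429 and 379 CPM in normoxia. The 3 hypoxic libraries lay above the 3 normoxic ones in every line, and the spread was widest in hypoxic OE cells, where library 3 was the highest and library 1 the lowest.

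The increase in VEGFA was 1.25-fold in OE cells (log2 fold change 0.32 ± 0.09 SE, edgeR adjusted p = 0.00761), 2.10-fold in KD cells (1.07 ± 0.09, adjusted p = 6.33e-11), 2.56-fold in VC cells (1.36 ± 0.09, adjusted p = 4.67e-13) and 2.94-fold in WT cells (1.55 ± 0.09, adjusted p = 1.59e-14). Here and below the test is the quasi-likelihood F-test of edgeR, adjusted over 24873 genes by Benjamini and Hochberg, n is 3 libraries per group, and a call means an adjusted p under 0.01. Tested as a difference of responses, the OE minus WT response was -1.24 ± 0.12 on the log2 scale (edgeR adjusted p = 2.17e-08) and the OE minus VC response was -1.04 ± 0.12 (edgeR adjusted p = 6.76e-07). Without hypoxic OE library 1 the OE response was 0.42 and these differences were -1.15 and -0.97, all still called. The call for the OE response itself was lost without hypoxic OE library 3, the one labelled OE1, where the log2 change was 0.19 (edgeR adjusted p = 0.0927), and without any of the 3 normoxic OE libraries (0.33 to 0.34, adjusted p 0.0139 to 0.0197). The KD minus WT response was -0.49 ± 0.12, which missed the threshold (edgeR adjusted p = 0.0275), and the VC minus WT response was -0.20 ± 0.12 (edgeR adjusted p = 0.381).

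**Figure D2:**
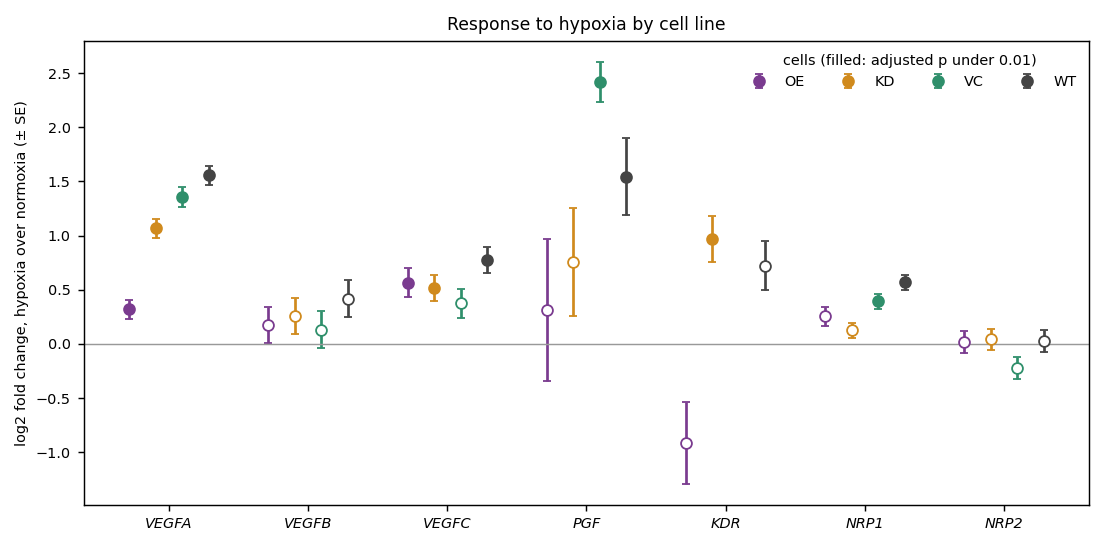
Log2 fold change of hypoxia over normoxia (vertical axis, ± SE, 3 libraries per group) for 7 genes in OE, KD, VC and WT cells; filled points had an adjusted p under 0.01. FLT1 (10 counts in all) and KDR in VC cells (1 count in hypoxia, 5 in normoxia) are left out. VEGFA lay at 0.32 in OE cells and at 1.07 to 1.55 in the other lines.

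Of the 8 genes, 2 were called between hypoxia and normoxia in OE cells (VEGFA and VEGFC), where 13.9% of all genes tested were called. In KD cells 3 were called (VEGFA, VEGFC and KDR), against 19.1% of all genes. The call was made for 3 in VC cells (VEGFA, PGF and NRP1), against 21% of all genes, and for 4 in WT cells (VEGFA, VEGFC, PGF and NRP1), against 21.1%. Each of these 12 calls was toward a higher level in hypoxia, where 6.47% of all genes were called higher in OE, 10.4% in KD, 10.3% in VC and 9.86% in WT cells. In OE cells both calls were lost in a fit of the OE libraries alone. Of the differences between responses, VEGFA was the only called gene of the 8 for OE against WT cells (6.18% of all genes) and for OE against VC cells (5.13%). None of the 8 was called by edgeR in the main fit, which ignores replicate numbers, for KD against WT cells (0.985% of all genes) or VC against WT cells (8.02%). At an unadjusted p under 0.05 there were 2 in each, and the share of all genes at that p was not counted. DESeq2 called 2 and 0 of the 8, against 523 and 2658 of all genes.

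Between the lines, VEGFA differed in its order at the 2 oxygen levels. In hypoxia OE cells averaged 658 ± 103 CPM, against 1242 ± 46.3 CPM in WT cells (SD, n = 3 each), 1.89-fold lower (log2 -0.92 ± 0.09 SE, edgeR adjusted p = 4.82e-10), and the log2 value was -0.84 without hypoxic OE library 1. In normoxia OE cells averaged 528 ± 2.22 CPM, against 422 ± 40.7 CPM in WT cells, 1.25-fold higher (log2 0.32 ± 0.09, edgeR adjusted p = 0.00518). The normoxic call did not survive the loss of any 1 of 5 libraries: without a normoxic OE library the log2 change was 0.30 to 0.31 (adjusted p 0.0183 to 0.0224), and without WT library 2 or 3 it was 0.31 and 0.24 (adjusted p = 0.0162 and 0.0649 by edgeR). KD cells had less VEGFA than WT cells at both levels, by log2 -0.82 ± 0.09 in hypoxia (edgeR adjusted p = 9.72e-09) and -0.34 ± 0.09 in normoxia (edgeR adjusted p = 0.00396). In normoxia that call was lost without KD library 1 (-0.33), 2 (-0.33) or 3 (-0.23) or WT library 1 (-0.24) or 2 (-0.28), with adjusted p of 0.0122 to 0.0878.

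VC cells had less VEGFA than any other line at the same oxygen level. Against WT cells their log2 change was -1.48 ± 0.09 in hypoxia (edgeR adjusted p = 6.73e-15) and -1.28 ± 0.09 in normoxia (edgeR adjusted p = 2.77e-13). OE cells compared with VC cells, which share the retroviral backbone, were higher by log2 0.56 ± 0.09 in hypoxia (0.64 without hypoxic OE library 1, edgeR adjusted p = 2.83e-06 with it) and 1.60 ± 0.09 in normoxia (edgeR adjusted p = 2.02e-15). So OE cells were below WT cells and above VC cells in hypoxia. These comparisons share their WT, VC or OE libraries and are not independent of each other. In the order of mean levels, hypoxic WT cells stood first, then hypoxic KD and OE cells, whose libraries overlapped, normoxic OE cells, hypoxic VC and normoxic WT cells, which overlapped too, normoxic KD cells and normoxic VC cells.

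Between OE and WT cells 5 of the 8 genes were called in hypoxia (VEGFA, VEGFC, PGF, KDR and NRP1, against 26.6% of all genes) and 4 in normoxia (VEGFA, VEGFC, KDR and NRP1, against 19.7%). Between KD and WT cells 3 were called in hypoxia (VEGFA, PGF and KDR, against 18.2% of all genes) and 2 in normoxia (VEGFA and NRP1, against 16.3%). Between VC and WT cells all but VEGFB and FLT1 were called in hypoxia, 6 in number (39.9% of all genes), and 5 in normoxia (35.8%), where NRP2 was missed. Between OE and VC cells the 4 called in hypoxia (38.2%) and in normoxia (33.5%) were VEGFA, PGF, KDR and NRP1. At either oxygen level more genes were called between VC and WT cells than between OE and WT cells.

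**Figure D3:**
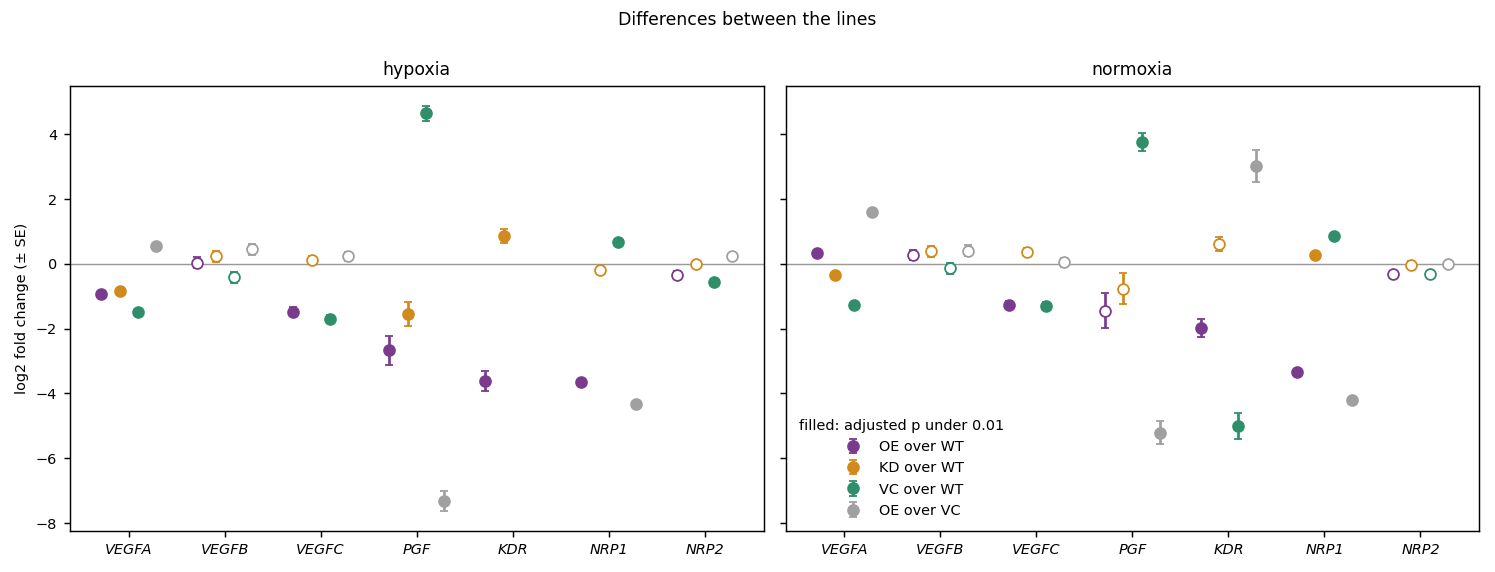
Log2 fold change between lines (vertical axis, ± SE, 3 libraries per group) in hypoxia (left) and normoxia (right) for 7 genes; filled points had an adjusted p under 0.01, and FLT1 and both KDR comparisons that use hypoxic VC cells (1 count) are left out. NRP1 in OE cells lay at -3.34 and -3.65 against WT cells and at -4.19 and -4.33 against VC cells, and PGF in VC cells lay at 3.77 and 4.64 against WT cells.

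VEGFB, whose product binds FLT1 and supports vessel survival more than growth, was not called in any comparison. Hypoxic OE libraries had 87.2, 152 and 192 CPM, against 132, 123 and 127 CPM in normoxic OE libraries. KD cells had 171, 167 and 157 CPM in hypoxia, against 141, 139 and 134 CPM in normoxia. WT cells had 141, 154 and 127 CPM in hypoxia, against 99.5, 112 and 104 CPM in normoxia, with no overlap but a log2 change of 0.42 ± 0.17 that missed the threshold (edgeR adjusted p = 0.0769). VC cells were at 96.6 to 116 CPM in hypoxia and 88.4 to 100.0 CPM in normoxia. The value of 87.2 CPM in hypoxic OE library 1 was the lowest of all 24 and that of hypoxic OE library 3 the highest, and both enter the single estimate of spread that all comparisons of VEGFB use. Without library 1, VEGFB was called in OE cells for hypoxia over normoxia (log2 0.44, edgeR adjusted p = 0.000216) and in hypoxia over VC cells (log2 0.69, edgeR adjusted p = 3.72e-08), and without library 3 the OE response was -0.08. Fitted on the compared groups alone, VEGFB was called in 6 comparisons, none of which holds hypoxic OE cells: in normoxia OE over WT (log2 0.28), KD over WT (0.40) and OE over VC cells (0.39), in hypoxia VC against WT cells (-0.46), and hypoxia over normoxia in KD (0.22) and WT cells (0.43). With the filter at 1 count in place of 10, VEGFB was called in 5 comparisons, OE over VC cells in hypoxia among them (0.46), and that one was called by DESeq2 too (0.44, adjusted p = 0.00953).

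VEGFC, the main ligand of the lymphatic receptor FLT4, separated the retroviral lines from the other 2. Its level was 15.9, 19.4 and 16.4 CPM in hypoxic and 12.6, 11.2 and 11.3 CPM in normoxic OE libraries. VC libraries had 16.1, 14.9 and 13.1 CPM in hypoxia, against 12.8, 10.4 and 10.9 CPM in normoxia. In WT libraries it was 49.6, 51.5 and 43.1 CPM in hypoxia, against 30.3, 30.6 and 23.2 CPM in normoxia. Every OE and VC library lay below every WT library, and KD libraries (42.3 to 58.2 CPM in hypoxia, 31.9 to 39.2 CPM in normoxia) overlapped with WT libraries in hypoxia only.

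Compared with WT cells, VEGFC was lower in OE cells by log2 -1.47 ± 0.13 in hypoxia (edgeR adjusted p = 7.47e-11, and -1.44 without hypoxic OE library 1) and -1.26 ± 0.13 in normoxia (edgeR adjusted p = 5.2e-09). In VC cells it was lower by -1.71 ± 0.13 (edgeR adjusted p = 1.73e-12) and -1.31 ± 0.13 (edgeR adjusted p = 1.24e-09). Between OE and VC cells the log2 difference was 0.23 ± 0.13 in hypoxia and 0.04 ± 0.14 in normoxia, neither called (edgeR adjusted p = 0.156 and 0.857). In KD against WT cells it was 0.12 ± 0.12 in hypoxia and 0.38 ± 0.12 in normoxia, and the second, at an adjusted p of 0.0207 by edgeR, passed the threshold with DESeq2 (0.42, adjusted p = 0.00646). Hypoxia raised VEGFC by log2 0.56 ± 0.14 in OE cells (edgeR adjusted p = 0.00277), 0.51 ± 0.12 in KD cells (edgeR adjusted p = 0.00124) and 0.77 ± 0.12 in WT cells (edgeR adjusted p = 6.94e-06), against 0.37 ± 0.14 in VC cells, where the call was missed (edgeR adjusted p = 0.0405). Same-numbered libraries deviated together between hypoxic and normoxic VC cells and between normoxic KD and WT cells, and with the replicate number as a block both VEGFC values were called (0.37 for hypoxia in VC cells, edgeR adjusted p = 0.00638, and 0.38 for KD over WT cells, adjusted p = 0.00157). The OE value was 0.63 without hypoxic OE library 1. In OE cells the call was lost without normoxic library 2 (0.54, edgeR adjusted p = 0.0109), and in KD cells without hypoxic library 1 (0.43) or 2 (0.46) or normoxic library 3 (0.40), at adjusted p of 0.0117 to 0.0161. No difference of VEGFC responses between lines was called, with values of -0.40 to 0.19.

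PGF, which encodes placental growth factor, stood far higher in VC cells than in WT or OE cells. VC libraries had 31.3, 30.2 and 28.6 CPM in hypoxia, against 5.43, 5.72 and 5.68 CPM in normoxia. Hypoxic OE libraries held 2, 4 and 2 counts and normoxic ones 2, 3 and 2, which is 0.124 to 0.234 CPM. KD libraries held 3, 4 and 10 counts in hypoxia and 3, 3 and 6 in normoxia, and WT libraries 17, 16 and 21 counts in hypoxia (1.02 to 1.52 CPM) and 3, 12 and 6 in normoxia (0.165 to 0.610 CPM). No VC library overlapped with a library of another line.

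Hypoxia raised PGF in VC cells by log2 2.42 ± 0.18 (5.35-fold, edgeR adjusted p = 1.32e-11) and in WT cells by 1.55 ± 0.35 (2.92-fold, edgeR adjusted p = 0.000927), although the call in WT cells was lost without normoxic library 1, which held 3 counts (1.16, edgeR adjusted p = 0.0146). The values in OE cells (0.31 ± 0.66) and KD cells (0.75 ± 0.50) rest on 8 against 7 and 17 against 12 counts, and neither was called. VC cells had 25.0-fold more PGF than WT cells in hypoxia (log2 4.64 ± 0.23, edgeR adjusted p = 4.72e-17) and 13.6-fold more in normoxia (3.77 ± 0.28, edgeR adjusted p = 1.41e-12). OE cells set against VC cells had 0.00601 of their PGF counts per library size in hypoxia (95% exact interval 0.00259 to 0.0119) and 0.0257 in normoxia (0.0102 to 0.0536), intervals that cover counting error only. The fitted hypoxic log2 value was -7.32 ± 0.30, and -7.29 without hypoxic OE library 1. In hypoxia PGF was below the WT level in OE cells by log2 -2.67 ± 0.43 (edgeR adjusted p = 8.48e-06, and -2.65 without hypoxic OE library 1) and in KD cells by -1.56 ± 0.37 (edgeR adjusted p = 0.00164). The KD call was lost without KD library 1 (-1.21) or 2 (-1.29) or WT library 3 (-1.37), at adjusted p of 0.0141 to 0.0243, and the value was -2.36 without KD library 3, which holds 10 of the 17 KD counts. In the fit of these groups alone it was also missed (-1.59, edgeR adjusted p = 0.0144).

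To compare ligands with each other, levels were divided by the length of the canonical transcript, 3609 bases for VEGFA, 1805 for VEGFB, 2259 for VEGFC and 1740 for PGF. Per kilobase, VEGFA was at 182 ± 28.6 CPM in hypoxic and 146 ± 0.615 CPM in normoxic OE cells, and at 344 ± 12.8 CPM in hypoxic and 117 ± 11.3 CPM in normoxic WT cells. VEGFA made up 68.2% ± 4.98 of the summed ligand level in hypoxic OE cells and 65.9% ± 0.730 in normoxic OE cells, 62.9% ± 1.12 and 49.9% ± 1.28 in KD cells, 60.1% ± 2.21 and 44.02% ± 1.49 in VC cells, and 77.5% ± 1.34 and 62.2% ± 2.43 in WT cells. VEGFB was the second ligand in all groups but normoxic VC cells, where its mean of 53.2 CPM per kb stood above the 48.3 CPM per kb of VEGFA. PGF gave 8.40% ± 0.387 of the sum in hypoxic VC cells and at most 0.157% in the OE, KD and WT groups. These shares depend on the length used: with the 14431 bases of all annotated VEGFA exons VEGFA would be 37.4% of the sum in hypoxic OE cells and 48.9% in hypoxic WT cells, and VEGFB would lead in all groups but hypoxic WT cells. Gene counts do not separate the VEGFA isoforms.

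**Figure D4:**
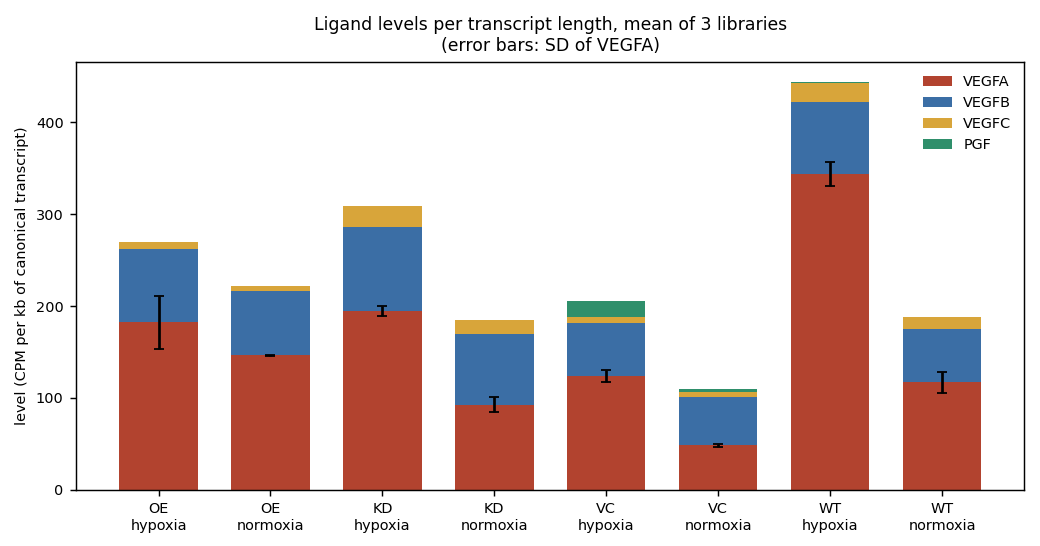
Stacked levels of the 4 ligands in CPM per kilobase of canonical transcript (vertical axis, from 0), mean of 3 libraries per group, with the SD of VEGFA. VEGFA was the largest share in every group but normoxic VC cells, and PGF was visible in VC cells only.

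FLT1, the receptor and decoy for VEGF-A, VEGF-B and placental growth factor, was at the edge of detection. It had 10 counts in all: 7 in normoxic VC libraries (2, 2 and 3), and 1 each in hypoxic VC, hypoxic KD and normoxic KD cells. OE and WT libraries held none, which allows up to 0.0679 and 0.0618 CPM in hypoxic and normoxic OE cells and 0.0662 and 0.0579 CPM in WT cells, taking 3 counts over a group as the limit of a count of 0. It reached the filter only through the counts of VC and KD cells together, no fold change is given for it, and it was not called in any comparison. FLT4, the receptor of VEGF-C, and VEGFD, its other ligand, did not pass the filter and had at most 2 counts in any group.

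KDR, the main signalling receptor for VEGF-A on endothelium, had a measurable level in KD and WT cells. It was 10.4, 10.2 and 10.2 CPM in hypoxic KD libraries, against 5.05, 5.08 and 5.59 CPM in normoxic ones. In WT libraries it was 6.82, 4.97 and 5.15 CPM in hypoxia, against 3.46, 3.30 and 3.51 CPM in normoxia. OE libraries held 4, 7 and 9 counts in hypoxia (0.330 to 0.601 CPM), against 10, 23 and 9 in normoxia (0.621 to 1.27 CPM). VC libraries held 0, 0 and 1 count in hypoxia and 0, 4 and 1 in normoxia. At either oxygen level the libraries of the lines did not overlap, in the order KD, WT, OE and VC.

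In hypoxia KDR was lower in OE than in WT cells by log2 -3.62 ± 0.30 (12.3-fold, edgeR adjusted p = 3.37e-11, and -3.51 without hypoxic OE library 1) and in normoxia by 3.97-fold (edgeR adjusted p = 9.66e-07). In VC cells the counts per library size were 0.00369 of those in WT cells in hypoxia (1 against 257 counts, 95% exact interval 9.3e-05 to 0.0207) and 0.0289 in normoxia (5 against 177 counts, 0.00926 to 0.0686). OE cells had 21.6 times the VC value in hypoxia (20 against 1 count, interval 3.46 to 897.0) and 8.78 times in normoxia (42 against 5 counts, 3.48 to 28.4), although the hypoxic call was lost in the fit of these groups alone (edgeR adjusted p = 0.0129) and kept without hypoxic OE library 1 (edgeR adjusted p = 8.6e-05). These intervals cover counting error only, and with a library left out the normoxic log2 value of 3.03 ranged over 2.52 to 4.41, the highest without VC library 2, which holds 4 of the 5 counts. KD cells had more KDR than WT cells in hypoxia (log2 0.86 ± 0.21, edgeR adjusted p = 0.00257), a call lost without KD library 1 (0.85), 2 (0.87) or 3 (0.86) or WT library 2 (0.77) or 3 (0.80), at adjusted p of 0.0106 to 0.0239. In normoxia the difference was 0.61 ± 0.22 (edgeR adjusted p = 0.0483), and DESeq2 called it (0.65, adjusted p = 0.00766).

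Hypoxia raised KDR in KD cells by log2 0.97 ± 0.21 (edgeR adjusted p = 0.000719). The change was 0.72 ± 0.23 in WT cells, which missed the threshold (edgeR adjusted p = 0.0145), and -0.91 ± 0.38 in OE cells (edgeR adjusted p = 0.0847). DESeq2 called the WT change (0.74, adjusted p = 0.00165). The OE response differed from the WT response by -1.64 ± 0.44, also above the threshold (edgeR adjusted p = 0.0131), while DESeq2 placed it below (-1.64, adjusted p = 0.00359). Some other endothelial genes moved with KDR in KD cells, and most of those called in VC cells moved against it. Of 12 endothelial markers, 11 were tested. In KD against WT cells 3 (TIE1, EGFL7 and ROBO4) were higher at both oxygen levels and none lower, where 18.2% of all genes were called in hypoxia and 16.3% in normoxia. In VC against WT cells, where KDR was lower, 6 were higher and 1 lower in hypoxia and 5 higher and 1 lower in normoxia (39.9% and 35.8% of all genes). In OE against WT cells 3 of the 11 were lower in hypoxia and 2 in normoxia. That is near the share of all genes called, 26.6% and 19.7%. The summed level of the 12 was 11.0 to 18.8 CPM in OE, 379 to 542 CPM in KD, 68.9 to 99.9 CPM in VC and 52.4 to 76.3 CPM in WT libraries. This sum mostly reports ROBO4, TIE1 and EGFL7, with 29599, 20339 and 7599 counts over all 24 libraries. No other marker of the 12 had more than 601 (ESAM). The defining endothelial genes CDH5, CLDN5 and ERG were at or near 0, with 20, 1 and 12 counts over all 24 libraries. In VC cells, where KDR was nearly absent, PECAM1 was at 2.18 CPM in normoxia, against 1 count in the 3 WT libraries, and SOX18 had 42 and 40 counts at the 2 oxygen levels, against 0 in all other lines. The part of these markers in the KDR differences was not tested.

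NRP1, a co-receptor for VEGF-A and for class 3 semaphorins, was far lower in OE cells than in any other line. OE libraries had 16.9, 16.9 and 17.4 CPM in hypoxia and 13.8, 14.4 and 14.8 CPM in normoxia. VC libraries had 324, 358 and 350.2 CPM in hypoxia and 275, 252 and 259.8 CPM in normoxia. In WT libraries it was 231, 199 and 214 CPM in hypoxia and 151, 151 and 133 CPM in normoxia. Every OE library was below every library of the other lines, and at the same oxygen level every VC library was above every WT library.

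Compared with WT cells, NRP1 in OE cells was 12.6-fold lower in hypoxia (log2 -3.65 ± 0.08, edgeR adjusted p = 1.24e-24) and 10.1-fold lower in normoxia (-3.34 ± 0.08, edgeR adjusted p = 9.55e-24). Compared with VC cells it was 20.1-fold lower in hypoxia (-4.33 ± 0.08, edgeR adjusted p = 2.65e-26) and 18.3-fold lower in normoxia (-4.19 ± 0.08, edgeR adjusted p = 6.74e-26). Without hypoxic OE library 1 the hypoxic values were -3.67 and -4.35, and library 3, labelled OE1, lay with the other two. VC cells were above WT cells by log2 0.68 ± 0.07 in hypoxia (edgeR adjusted p = 9.24e-10) and 0.86 ± 0.07 in normoxia (edgeR adjusted p = 1.06e-11). KD libraries, at 194, 195 and 178 CPM in hypoxia and 181, 169 and 171 CPM in normoxia, stood above WT libraries in normoxia (log2 0.26 ± 0.07, edgeR adjusted p = 0.00575), a call that was lost without KD library 1 (0.27, edgeR adjusted p = 0.01) or WT library 3 (0.25, edgeR adjusted p = 0.0131). In hypoxia they averaged below WT libraries (-0.18 ± 0.07, edgeR adjusted p = 0.0523).

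Hypoxia raised NRP1 by log2 0.39 ± 0.07 in VC cells (edgeR adjusted p = 3.97e-05) and 0.57 ± 0.07 in WT cells (edgeR adjusted p = 1.24e-07). It was 0.25 ± 0.09 in OE cells (edgeR adjusted p = 0.0304) and 0.12 ± 0.07 in KD cells (edgeR adjusted p = 0.222). The KD minus WT response was -0.44 ± 0.10, just short of the threshold (edgeR adjusted p = 0.0103), and DESeq2 called this difference (-0.46, adjusted p = 3.93e-05). With the replicate number as a block edgeR called it too (-0.44, adjusted p = 0.00783).

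NRP2, the co-receptor for VEGF-C and for class 3 semaphorins, was not called in any hypoxic response. Its group means lay between 38.0 ± 1.89 CPM in hypoxic VC cells and 56.1 ± 6.53 CPM in hypoxic WT cells. Hypoxia over normoxia gave log2 values of -0.22 to 0.04 in the 4 lines, none of them called (edgeR adjusted p 0.112 to 0.983). VC cells had less NRP2 than WT cells in hypoxia (36.4, 37.4 and 40.1 CPM, against 63.6, 51.6 and 52.99 CPM; log2 -0.56 ± 0.10, edgeR adjusted p = 2.14e-05). OE cells were below WT cells by -0.33 ± 0.10 in hypoxia and -0.32 ± 0.10 in normoxia, just above the threshold (edgeR adjusted p = 0.01003 and 0.0159). In normoxia VC cells were below WT cells by -0.32 ± 0.10 too, also just above it (edgeR adjusted p = 0.01014), and OE and VC cells differed by log2 -0.003. In the order of mean levels each of the first 6 groups overlapped with the next.

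The wider pathway was read from lists of genes. Of 26 genes that carry signals from VEGF receptors, 5 were higher and 10 lower in OE than in WT cells in hypoxia, and 6 higher and 8 lower in normoxia, with medians of -0.26 and -0.10 against 0.03 and 0 over all genes, of which 26.6% and 19.7% were called. In OE cells NFATC2, a calcium-regulated transcription factor, was at 14.8 CPM in hypoxia against 1.52 CPM in WT cells (log2 3.29), PIK3R1, a regulatory subunit of PI3-kinase, differed by log2 2.35, and PTPRB, the vascular endothelial phosphatase that restrains KDR, was at 160.1 CPM against 642 CPM. Hypoxic VC cells also differed from WT cells in NFATC2 (13.1 CPM) and PTPRB (75.7 CPM). PIK3R1 was at 82.4 CPM in hypoxic VC cells, against 348 CPM in OE and 68.4 CPM in WT cells. In hypoxia over normoxia 5 rose and 5 fell in OE cells, 7 and 6 in KD cells, 10 and 5 in VC cells, and 9 and 6 in WT cells, against 13.9%, 19.1%, 21% and 21.1% of all genes called in these lines. Without hypoxic OE library 1, chosen after seeing the data, 6 were higher and 11 lower in hypoxic OE than in WT cells, and 6 rose and 4 fell in OE cells. Of the 24595 genes tested in that fit, 3517 were higher and 3358 lower, and 2165 rose and 1805 fell. HSPB1, a small heat shock protein phosphorylated downstream of p38, rose in each line, by log2 1.44 in OE, 1.34 in KD, 1.47 in VC and 1.52 in WT cells. NOS3, the endothelial nitric oxide synthase, was read in VC cells only, at 5.70 CPM in hypoxia and 6.45 CPM in normoxia, with 0 counts in every other group.

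Among 12 class 3 semaphorins and plexins, which share the neuropilins with VEGFs, 4 were higher and 6 lower in OE than in WT cells at either oxygen level (26.6% of all genes called in hypoxia, 19.7% in normoxia), also without hypoxic OE library 1. PLXNA4, a semaphorin receptor, was higher in OE cells by log2 3.19 in hypoxia and 2.63 in normoxia, and SEMA3A, the ligand of NRP1, was lower by -2.15 and -1.63. In VC cells SEMA3A was at 46.0 CPM in hypoxia and 97.2 CPM in normoxia, against 12.9 and 12.4 CPM in WT cells. SEMA3G, a ligand of NRP2, was at 17.2 and 8.42 CPM in VC cells with no more than 1 count in any other group. In KD cells SEMA3B was lower than in WT cells by log2 -3.67 in hypoxia and -3.60 in normoxia.

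Of 12 listed genes for proteins that bring VEGF-C to its active form, 10 were tested, and 2 were higher and 4 lower in OE than in WT cells in hypoxia (26.6% of all genes), and 1 higher and 6 lower in normoxia (19.7% of all genes). The lower ones in hypoxia were 5 without hypoxic OE library 1. CCBE1, which brings the protease to VEGF-C, was at 10.6 CPM in hypoxic OE, 35.1 CPM in KD, 3.74 CPM in VC and 70.0 CPM in WT cells. PLAU, the urokinase that activates plasmin, was lower in OE than in WT cells by log2 -3.30 in hypoxia and -3.02 in normoxia, and PLAT, the tissue activator, by -3.38 and -2.14. ADAMTS3, the main activating protease, was lower in VC than in WT cells by -2.64 in hypoxia and -2.38 in normoxia.

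Of 18 genes for transcription factors, oxygen sensors and RNA-binding proteins that act on VEGFA, 17 were tested. In OE cells HIF1A mRNA was higher than in WT cells by log2 1.34 in hypoxia and 0.76 in normoxia, while EPAS1, which encodes HIF2α, was lower by -1.70 and -1.73 and ARNT2 by -2.31 and -2.08. In all, 1 was higher and 7 were lower in hypoxia (26.6% of all genes called; 8 lower without hypoxic OE library 1), and 1 higher and 5 lower in normoxia (19.7%). In KD against WT cells HIF1A differed by -0.33 in normoxia and was not called in hypoxia, at 304 CPM in KD and 276 CPM in WT cells, and EPAS1 differed by -0.55 in hypoxia and -0.79 in normoxia. EGLN3, an oxygen sensor that marks HIFs for degradation, was at 171 CPM in hypoxic and 26.3 CPM in normoxic VC cells, against 2.25 and 0.758 CPM in WT cells.

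VEGFA was then set beside 18 other HIF target genes, which include genes for glucose use, pH, mitophagy and collagen. In hypoxia over normoxia 14 of the 18 rose in OE cells, 16 in KD cells, 17 in VC cells and 16 in WT cells, with medians of 0.48, 1.46, 1.25 and 1.78. Of all genes, 6.47%, 10.4%, 10.3% and 9.86% were called higher in these lines. The response was called lower in OE than in WT cells for 17 of the 18, where 2.85% of all genes were called lower, and lower in OE than in VC cells for 13 (2.72% of all genes). It was also called lower than in WT cells for 12 in VC cells (3.53% of all genes) and for 6 in KD cells (0.31%). At -1.24, the OE minus WT difference of VEGFA lay within the list, of which 9 members had a lower value, among them NDRG1 (-2.34), CA9 (-1.93) and ADM (-1.86). PDK1 was the 1 target called lower in hypoxia in OE, KD and VC cells. Its log2 changes there were -0.98, -0.77 and -0.82, against -0.05 in WT cells. It is among the 17, 6 and 12 genes above through a larger fall, not a smaller rise. In normoxia 15 of the 18 were called higher in OE than in WT cells, where 9.48% of all genes were called higher, and VEGFA was higher there too. In normoxia 12 of the 18 were also called higher than in WT cells in KD and 12 in VC cells, where VEGFA was lower (-0.34 and -1.28). Of the 24873 genes tested, 1644 were called higher there in KD and 4915 in VC cells. Without hypoxic OE library 1 the response was called lower for 17 of the 18 against WT cells and for 15 against VC cells. Of the 24595 genes tested in that fit, 916 and 941 were called lower. The VC minus WT difference of VEGFA was -0.20 (not called), and the 18 targets ranged over -1.16 (ADM) to -0.04 (KDM3A).

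**Figure D5:**
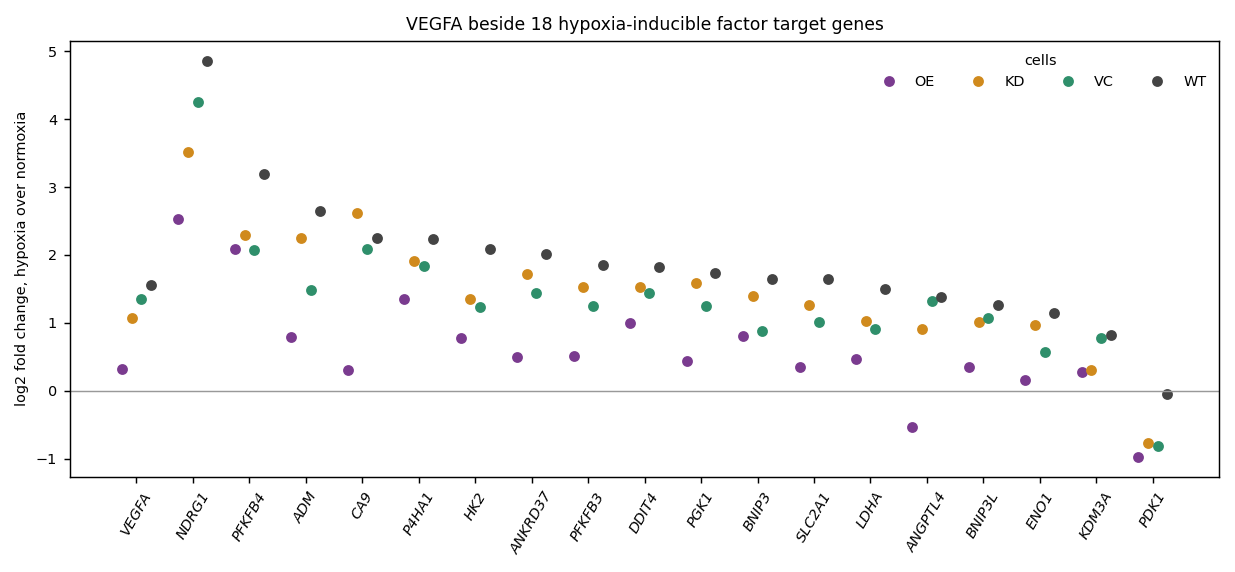
Log2 fold change of hypoxia over normoxia (vertical axis) for VEGFA and 18 other HIF target genes in OE, KD, VC and WT cells; each point is the fitted change over 3 libraries per group, without error bars. In OE cells VEGFA lay at 0.32, and 17 of the 18 targets had a response called lower than in WT cells, PDK1 through a larger fall.

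Genes whose pattern over the 24 libraries was among the most like that of each member are given as a description, with Pearson's r of log2 CPM over 9599 genes of at least 10 CPM. The libraries fall into 8 groups of 3, so that r mostly reflects the order of the groups. They were UBE4B (0.967), PARP4 (0.963) and LOX (0.958) for VEGFA, OTUD5 (0.915), MAZ (0.909) and MARCHF9 (0.897) for VEGFB, GRAMD1B (0.973) and NPTXR (0.964) for VEGFC, and SCPEP1 (0.968), NUDCD3 (0.964) and LASP1 (0.962) for PGF. For KDR they were GRID1 (0.984), RHOA (0.981) and PTPRS (0.980), for NRP1 GALNT6 (0.986), IL1RAP (0.984) and IL1R1 (0.982), and for NRP2 DOCK1 (0.889), GLI3 (0.886) and C6orf89 (0.877). FLT1 was too sparse to be read. Among the 8 members the highest r was that of VEGFC and KDR (0.875), followed by KDR and NRP2 (0.844), and VEGFA and KDR, ligand and receptor, had an r of 0.496.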

How the data were processed

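Total RNA of 24 ARPE-19 libraries was prepared with ribosomal RNA depletion and read at 50 bases. Gene counts were made by the authors with STAR on GRCh38 and deposited without normalization, and the submitters' processing notes also name Partek. The study's methods name a UCSC transcript set, while the deposited alignment report names Ensembl 98. That report's mapped read numbers were used for depth, and the normalized table was not used. Columns were matched to libraries by name, and no row lacked a gene.

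The 8 genes and the gene lists were chosen with earlier results of these data known. The 24873 genes that reached 10 counts over all libraries were fitted in R 4.3.3 with edgeR 4.0.16 (limma 3.58.1): TMM, 8 groups in 1 model, robust quasi-likelihood F-tests, Benjamini-Hochberg adjustment, calls at an adjusted p under 0.01, the study's threshold. The SE is the absolute log2 fold change over the square root of F. The fit was tested on simulated data. Every member is named with its values, and other genes come from the lists or are among the 3 most like a member in pattern, of which 1 is not reported here. Totals were 10796813 to 19779450 counts (median 15992615), and 3 counts were 0.15 to 0.252 CPM. Chi-square per degree of freedom was 2.16 to 40.35 over the 24 replicate pairs, so no library was a repeat of another. Alternatives were RLE size factors, 2 other filters (at least 1 count, filterByExpr), removal of mitochondrial and ribosomal RNA genes, a replicate block, the compared groups alone, an adjusted p of 0.05, DESeq2 1.42.0, and each library left out. Positions are from GENCODE 44 and promoter sequences from RefSeq. The column names tie replicate numbers to sets 1 to 3, whose meaning is not given. Correlations of deviations between same-numbered libraries were -0.102 to 0.341, with all 3 over 0.1 in 5 of 28 pairs of groups: KD and WT at each oxygen level, OE and VC in normoxia, and hypoxia and normoxia in VC and in WT cells. In these the same-numbered libraries may be paired. The main fit did not use such pairing, so its p-values ignore it, and the replicate block over all 24 libraries is given as an alternative. Gene list counts without hypoxic OE library 1 were added after seeing the data.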

Additional observations from a re-analysis of the deposited data

Results flagged for a closer look

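The hypoxic response of VEGFA differed between lines by a direct test of the difference. On the log2 scale the OE minus WT difference was -1.237 ± 0.123 (SE, edgeR adjusted p = 2.17e-08), and the OE minus VC difference was -1.039 ± 0.123 (edgeR adjusted p = 6.76e-07). Each group had 3 libraries. Without hypoxic OE library 1, the library with the low share of gene counts, the differences were -1.15 and -0.97.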

How the results depend on the processing

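Of 47 pairs of a gene and a comparison that were called, 37 kept their direction and call in all alternatives, 10 lost the call in at least 1, and 23 others were called in an alternative only. The direction of 1 value reversed: VEGFB in hypoxia over normoxia in OE cells was 0.18, and -0.084 without hypoxic OE library 3 (0.44 without library 1). The larger changes in the number of the 8 genes called were as follows. Smaller changes in other comparisons are not listed, and the cause was not tested. For KD against WT cells in normoxia the number was 2, and 4 at an adjusted p under 0.05, with at least 1 count or with DESeq2, 5 in the compared groups alone, and 0 to 2 with a library left out. Over all genes 4058 were called there, against 5526 at 0.05, 4467 with at least 1 count, 4675 with DESeq2 and 5287 in the groups alone. For KD against WT cells in hypoxia the number of the 8 was 3, and 1 to 3 with a library left out. For hypoxia in OE cells it was 2, then 0 in the compared groups alone and 0 to 3 with a library left out. For the OE minus WT response it was 1, and 2 at 0.05, with at least 1 count, filterByExpr or DESeq2, and 1 to 2 with a library left out. For the KD minus WT response it was 0, and 2 at 0.05, with RLE, at least 1 count, the groups alone or DESeq2, 1 with filterByExpr or without mitochondrial and ribosomal RNA genes, and 0 to 2 with a library left out.

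With the replicate number as a block (replicate block), the KD minus WT response gave 1 call, and KD against WT cells in normoxia gave 3. It changed a call for NRP1 in the KD minus WT response (-0.44, adjusted p = 0.00783), for NRP2 in OE against WT cells in hypoxia (-0.32, adjusted p = 0.00868) and in VC against WT cells in normoxia (-0.32, adjusted p = 0.00742), and for VEGFC as given above, all by edgeR. No other call changed. Over all genes, the fit of the groups alone called 762 in OE hypoxia against 3449, with 58.1% of calls higher against 46.7%, 3411 against 6626 for OE over WT cells in hypoxia, and 6081 against 9502 for OE over VC cells in hypoxia. For differences of responses it called 888 against 1536 (OE minus WT), 605 against 245 (KD minus WT) and 707 against 1277 (OE minus VC). The KD minus WT count was also 374 with at least 1 count, 523 with DESeq2, 504 at an adjusted p under 0.05 and 140 to 203 with a library left out. Of the others, OE minus WT gave 2549 and OE minus VC 2246 at 0.05, OE minus VC gave 2008 with at least 1 count, VC minus WT gave 3117 at 0.05 and 3019 in the groups alone against 1996, and hypoxia in OE cells gave 5571 at 0.05. Depth limits FLT1, KDR in VC cells and PGF in OE, KD and normoxic WT cells.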
